A study of Mus musculus with 17 samples.

Results

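The Sprouty, Spred and PEA3 ETS genes are 9 genes that report on or restrain signalling from receptor tyrosine kinases through RAS and ERK. They were chosen by gene symbol: 3 Sprouty genes (Spry1, Spry2 and Spry4), 3 Spred genes (Spred1, Spred2 and Spred3) and the 3 PEA3 factors (Etv1, Etv4 and Etv5), and all 9 were among the 25198 genes of the deposited count table. RNA-seq had been done on antral ovarian follicles of CD1 mice aged 16 days, grown for 8 days in eIVFG, an encapsulated in vitro follicle growth culture, with several follicles pooled in each sample. The 6 Tyrphostin libraries came from follicles exposed for 4 h to hCG, the hormone that starts ovulation in culture, together with 10 µM Tyrphostin-AG1478 in DMSO; AG1478 is an inhibitor of the EGF receptor kinase. The 11 Control libraries are labelled Control, but the treatment text is identical for all samples, so whether Control follicles received hCG and DMSO is not stated. The labels name 2 batches: batch 1 held 6 Control and 3 Tyrphostin libraries and batch 2 held 5 and 3. Numbers in the library names put the 11 Control libraries in 5 sets of 1 to 3 libraries, and what a set is, is not stated. The labels do not say that libraries are separate animals or cultures, and p-values below therefore measure only the spread between these libraries, which may be technical.

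Sprouty and Spred proteins are membrane-associated inhibitors of signalling from RAS to ERK. Sprouty genes are induced by ERK and act as negative feedback on growth factor receptors, and SPRED1 recruits neurofibromin, which switches RAS off. The PEA3 factors are ETS transcription activators whose genes are induced by FGF and EGF signalling through ERK in many tissues, in part because ERK relieves repression by Capicua, an HMG-box repressor. In the preovulatory follicle, the ovulatory hormone makes granulosa cells release EGF-like ligands, which activate the EGF receptor and ERK in the granulosa and cumulus cells. The comparison asks how transcripts of these Sprouty, Spred and PEA3 genes differed between the Tyrphostin libraries (hCG with the inhibitor) and the Control libraries. Whether Control follicles received hCG is not stated, so a difference cannot be assigned to the inhibitor alone.

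Depth was lowest in Control 6 (1820545 counts) and highest in Control 8 (8291024), and the 9 genes together held 0.00365% to 0.0155% of a library's counts. Granulosa transcripts led the marker lists: the 8 granulosa markers summed to 85600 to 107000 CPM (counts scaled by library total and by TMM, a correction for composition) in Control and 78200 to 114000 CPM in Tyrphostin libraries. Inha and Inhba, the inhibin subunit genes, and the gap junction gene Gja1 carried nearly all of this. Foxl2 reached at most 30 counts in a library and Amh at most 4. The 9 theca and stroma markers summed to 269 to 2160 CPM in Control and 275 to 3090 CPM in Tyrphostin libraries, highest in Tyrphostin 5, and none of the 9 was called. The 9 oocyte markers in the table summed to 23.7 to 178 and 30.1 to 273 CPM, and those of endothelial and immune cells to at most 89.8 and 36.1 CPM. Itgam, a myeloid marker, was at 0 in every library. The 2 endothelial markers tested, Cdh5 and Kdr, had log2 fold changes (Tyrphostin against Control) of -0.69 ± 0.42 and -0.67 ± 0.31 (SE) and were not called. Of the granulosa markers Cyp19a1, Nr5a2 and Fshr were called higher in Tyrphostin libraries. The part of these markers in the results below was not tested. In bulk samples, fewer cells of a type and less RNA per cell cannot be told apart.

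Over the whole table, edgeR's quasi-likelihood test with batch as a term called 10.6% of the 9603 genes tested (adjusted p under 0.05): 6.25% lower and 4.35% higher in Tyrphostin libraries. Of the 9 genes, 6 passed the filter on low counts, and 0 of these 6 were called in either direction. At an unadjusted p under 0.05 there were 4 (Spry2, Spry4, Spred1 and Spred3), all with lower estimates. At that level 23.7% of all genes tested were found in either direction. DESeq2 called 2, Spry2 and Spred1, both lower, beside 6.45% of all genes with an adjusted p called lower. With limma-voom 0 were called, beside 6.78% of all genes called lower. The 6 log2 fold changes ran from -1.12 (Spry2) to -0.06 (Etv5) with a median of -0.66, beside a median of 5.42e-05 for all genes tested. When libraries were scaled by total counts alone, the median of all genes moved to 0.15 and Etv5 turned positive (0.07), while the other 5 estimates stayed below 0 in all 4 scalings.

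Calls of Spry2 and Spred1 depended on single Control libraries. Control 6 had the fewest counts, and Control 7 had 0.175% of its counts in mitochondrially encoded genes against 0.781% to 2.83% elsewhere. Without Control 7 both genes were called (edgeR adjusted p = 0.0363 for Spry2 and 0.0215 for Spred1), and the share of all genes called lower was 7.55%, against 6.25% with all libraries. Without Control 6 Spred1 was called (0.0374), beside 6.24% of all genes. Leaving out some other libraries moved a gene towards the threshold without a call, as for Spry2 without Control 8 (0.0702) and Spred1 without Control 1 (0.0529). Leaving out others moved the genes away, with an edgeR adjusted p of up to 0.221 for Spry2 (without Tyrphostin 1) and 0.154 for Spred1 (without Tyrphostin 6). With both libraries left out, an alternative added after seeing the data, the adjusted p was 0.0215 for Spry2 and 0.00816 for Spred1, with log2 fold changes of -1.33 and -0.91, and the other 4 genes were not called. The share of all genes called lower was then 7.77%. With the Control libraries summed by set, 0 members were called and the edgeR adjusted p was 0.0536 for Spry2, 0.0504 for Spred1 and 0.211 for Spry4, while 708 genes were called in all, against 1018. With the set as a random block in limma-voom 0 members and 885 genes were called, against 1137 genes in limma-voom without the block.

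**Figure D1:**
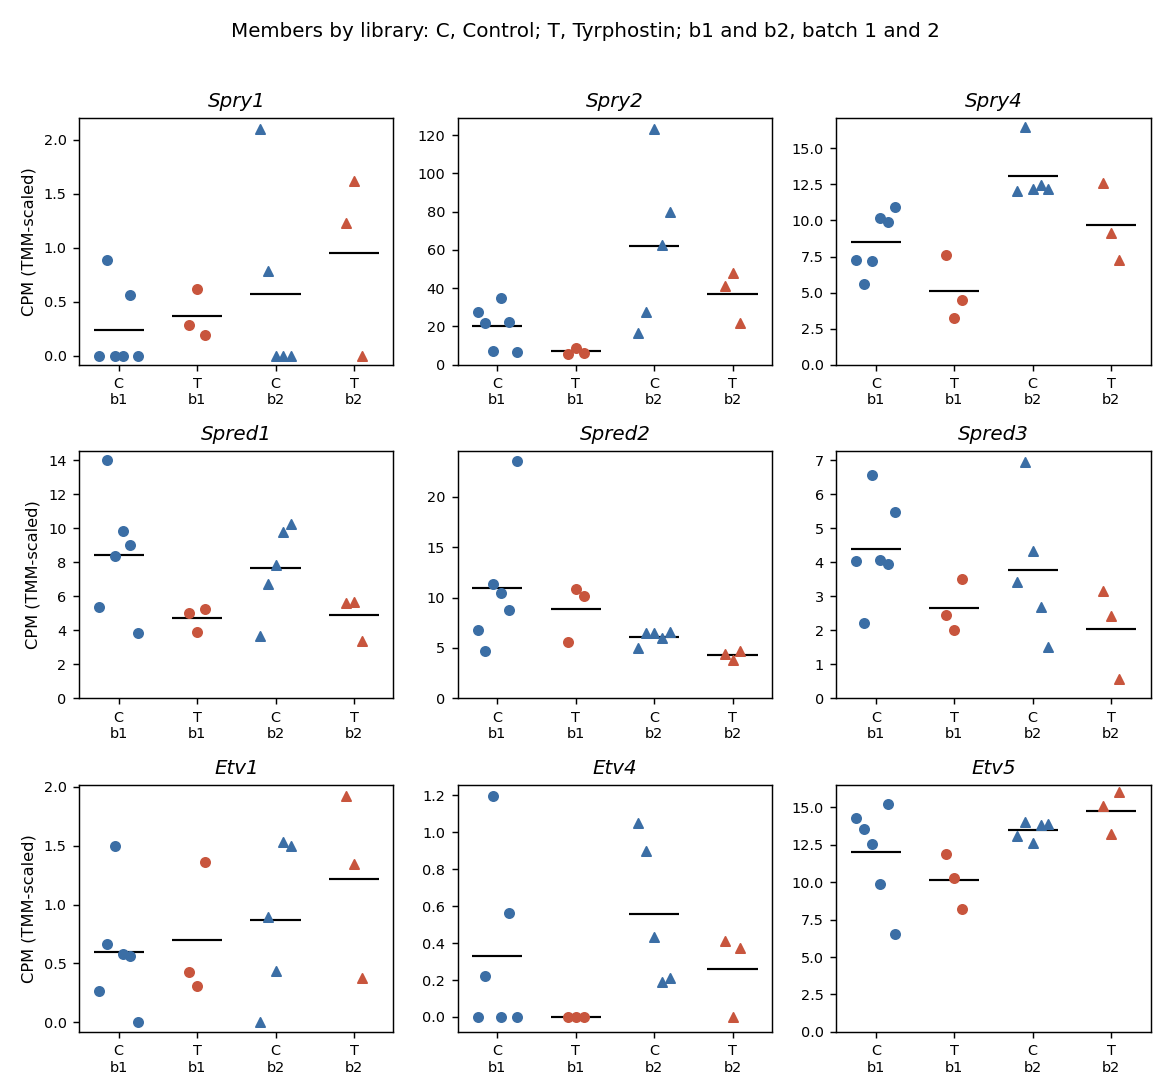
TMM-scaled CPM of each of the 9 genes in the 17 libraries, by group (C, Control; T, Tyrphostin) and batch (b1, circles; b2, triangles); each point is 1 library and each line a group mean. Spry2 is higher in batch 2 than in batch 1 in both groups, and Spry1, Etv1 and Etv4 stay at or below 2.1 CPM.

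The genes differed widely in level. Per kilobase of annotated exon, Control libraries averaged 18.7 CPM per kb ± 17.1 (SD, n = 11) for Spry2, 3.09 ± 0.596 for Etv5, 2.22 ± 0.645 for Spry4, 1.89 ± 1.16 for Spred2, 1.19 ± 0.451 for Spred1 and 0.661 ± 0.274 for Spred3. Etv4, Spry1 and Etv1 followed at 0.14 ± 0.141, 0.136 ± 0.229 and 0.0542 ± 0.0429 CPM per kb. These lengths join the exons of all annotated isoforms, 13.3 kb for Etv1 against 3.1 kb for Etv4 and 2.91 kb for Spry1. Which isoforms were expressed was not tested. In CPM alone the Control mean of Etv1 (0.72) was above those of Etv4 (0.43) and Spry1 (0.39). Per kb within single libraries, Spry2 was above Etv5 in 11 of 11 Control and 5 of 6 Tyrphostin libraries, and Etv5 above Spry4 in 9 of 11 and 6 of 6. The order of Spry4, Spred2, Spred1 and Spred3 was less fixed: each was above the next in 8 of 11 Control libraries. The ranges of mean ± SD of neighbours overlapped at every step of the order except from Spred3 to Etv4. Spred3 was above Etv4 in 11 of 11 Control libraries, while Etv4, Spry1 and Etv1 had no stable order, with Etv4 above Spry1 in 5 of 11 and Spry1 above Etv1 in 4 of 11.

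**Figure D2:**
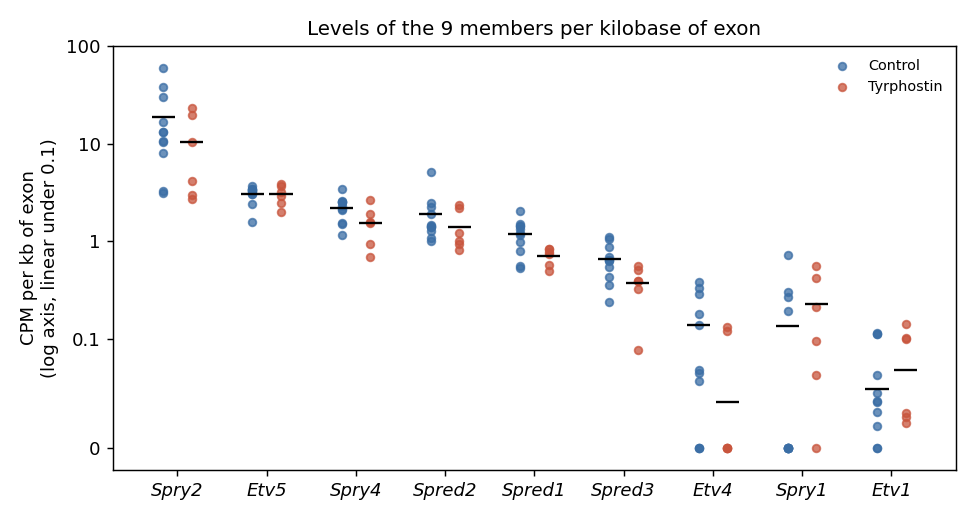
CPM per kilobase of exon for the 9 genes, ordered by the Control mean (vertical axis logarithmic, linear under 0.1); each point is 1 library and each line a group mean. Spry2 leads, 5 genes lie between 0.661 and 3.09 in the Control mean, and Etv4, Spry1 and Etv1 lie at or below 0.14.

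Upstream sequence, the 250 bases before a RefSeq start (GRCm38.p6), is shown for Spry2 and Spred1, the genes that some alternative fits called, and for Spred3 and Etv5, whose windows hold a motif of Capicua. Capitals mark the ETS core GGAA and the Capicua core TGAATG, each on either strand (TTCC and CATTCA on the other), and 1 ETS core of Etv5 directly follows a Capicua core. The Spry2 window lies at chr14:105896820-105897069 (minus strand) and the Spred1 window at chr2:117120821-117121070 (plus strand), both outside annotated genes. The Spred3 window, chr7:29168648-29168897 (minus strand), and the Etv5 window, chr16:22438369-22438618 (minus strand), lie in introns of the GENCODE M21 annotation.
Spry2: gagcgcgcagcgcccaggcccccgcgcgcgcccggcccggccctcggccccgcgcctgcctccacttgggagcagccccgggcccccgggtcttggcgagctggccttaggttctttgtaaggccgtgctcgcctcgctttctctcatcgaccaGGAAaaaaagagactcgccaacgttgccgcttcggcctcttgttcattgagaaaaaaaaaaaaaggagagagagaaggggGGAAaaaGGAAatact
Spred1: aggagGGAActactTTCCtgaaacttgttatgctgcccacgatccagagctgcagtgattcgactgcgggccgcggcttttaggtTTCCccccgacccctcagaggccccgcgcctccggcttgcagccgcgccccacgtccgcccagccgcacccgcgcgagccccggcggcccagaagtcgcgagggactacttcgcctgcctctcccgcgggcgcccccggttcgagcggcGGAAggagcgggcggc
Spred3: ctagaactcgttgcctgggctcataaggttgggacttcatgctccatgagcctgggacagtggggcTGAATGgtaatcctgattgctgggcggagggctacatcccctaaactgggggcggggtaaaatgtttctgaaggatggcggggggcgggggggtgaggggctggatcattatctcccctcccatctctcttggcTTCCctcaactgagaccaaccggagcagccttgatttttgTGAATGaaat
Etv5: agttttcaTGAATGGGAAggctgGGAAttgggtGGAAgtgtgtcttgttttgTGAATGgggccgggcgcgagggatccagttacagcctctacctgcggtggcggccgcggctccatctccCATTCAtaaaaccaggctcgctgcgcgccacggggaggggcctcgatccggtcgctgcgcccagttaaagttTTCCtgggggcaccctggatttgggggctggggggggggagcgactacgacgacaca

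RefSeq windows of 7 of the genes were used, 9 in all, since Etv1 and Etv5 have 2 starts each. The ETS core, the short letters that ETS factors share, was in 8 of the 9 windows, with 3 matches in Spry2, 4 in Spred1, 7 in Spred2 and 4 in the Etv5 window shown, but 93.4% of all 32851 windows hold it. The longer ETS form CCGGAAGT was in 0 of 9 windows (2.88% of all windows). The Capicua core, searched after the windows had been read, was in 2 of the 9: Etv5 had 3 matches, beginning 242, 198 and 129 bases before the start, and Spred3 had 2, at 184 and 10. It was in 10.9% of all windows. The full form TGAATGAA was at the Spred3 match 10 bases before the start only (1.08% of all windows hold it), and TGAATGGA was in 0 of 9 (1.01%). TGANTCA, the AP-1 motif, TGACGTCA, the cyclic AMP response element, and the CArG box of serum response factor were in 0 of 9 (6.75%, 1.55% and 1.47% of all windows), and the shorter TGACG of the response element was in 1, that of Spred2 (17.8%). These matches are descriptions of letters in these windows.

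Spry2, the most abundant of the 9, had the largest log2 fold change and the largest SD relative to its Control mean among the 6 genes that passed the filter. The gene lies on chromosome 14 from 105891947 to 105896819 (GRCm38, minus strand), with 2 exon segments. In batch 1 the Control libraries 1 to 6 had 27.5, 21.8, 6.87, 35.1, 22.3 and 6.57 CPM, and the Tyrphostin libraries 5.74, 8.7 and 6.24 CPM. Control 1, 2, 4 and 5 stood clear of the Tyrphostin range, and Control 3 and 6 lay inside it. In batch 2 the Control libraries 7 to 11 had 16.8, 27.7, 123, 62.7 and 79.6 CPM, and the Tyrphostin libraries 41, 48 and 21.6 CPM. Control 9, 10 and 11 lay above the 3 Tyrphostin libraries, Control 8 among them and Control 7 below them, so the groups overlapped.

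Over both batches Spry2 had a Control mean of 39.1 CPM ± 35.7 (SD, n = 11) and a Tyrphostin mean of 21.9 CPM ± 18.6 (SD, n = 6). The Spry2 log2 fold change was -1.12 ± 0.43 (SE; 95% interval -2.01 to -0.22; edgeR adjusted p = 0.111). It was -1.55 ± 0.46 (SE) within batch 1 (edgeR adjusted p = 0.059) and -0.75 ± 0.57 (SE) within batch 2 (0.739). The interaction of treatment and batch was 0.81 ± 0.81 (SE; edgeR adjusted p = 0.9997), so a difference between batches was not detected. An exact two-sided permutation test of log2 CPM over all 4704 arrangements within batches gave p = 0.0844 for a mean within-batch difference of -0.87. With the libraries of each Control set averaged, an alternative added after seeing the data, the exact permutation p for Spry2 was 0.065. Leaving out Control 3 or Control 6 brought the batch 1 comparison under the threshold (edgeR adjusted p = 0.0153 and 0.0169), beside 3.55% and 4.14% of all genes called lower in those fits.

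Spry4, the other Sprouty gene with counts enough for the test, lies on chromosome 18 from 38586247 to 38601415 (minus strand). Its Control libraries had 7.28, 5.56, 7.17, 10.2, 9.88 and 10.9 CPM in batch 1 and 12.1, 16.5, 12.2, 12.5 and 12.2 CPM in batch 2. Its Tyrphostin libraries had 7.6, 3.26 and 4.49 CPM in batch 1 and 12.6, 9.16 and 7.27 CPM in batch 2. In both batches, 2 of the 3 Tyrphostin libraries lay below every Control library, and Tyrphostin 1 and Tyrphostin 4 lay inside the Control range. The Control mean was 10.6 CPM ± 3.07 (SD, n = 11) and the Tyrphostin mean 7.4 CPM ± 3.35 (SD, n = 6). The log2 fold change was -0.56 ± 0.21 (SE; 95% interval -1.001 to -0.12; edgeR adjusted p = 0.0966). The exact permutation test within batches gave p = 0.00787, 1 of 9 such tests run on the members, for a mean difference of -0.58. That test treats the Control libraries as separate samples. With the libraries of each Control set averaged, an alternative added after seeing the data with 200 arrangements, the exact permutation p for Spry4 was 0.065. Estimates within batches were -0.70 ± 0.34 and -0.43 ± 0.27 (SE; edgeR adjusted p = 0.257 and 0.648).

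Spry1 was near the limit of detection. It lies on chromosome 3 from 37639947 to 37644598 (plus strand), and 24.4% of its exonic bases overlap Gm42922 on the other strand, and in the Smart-Seq2 libraries that the labels name, which do not mark strand, reads of both genes cannot be told apart. It had 0 counts in 8 of 17 libraries and at most 9 in any, with 21 counts over the 11 Control and 22 over the 6 Tyrphostin libraries. Control 7 was highest at 2.1 CPM and Tyrphostin 5 next at 1.62 CPM. Without the filter its log2 fold change was 0.58 ± 0.79 (SE; 95% interval -0.98 to 2.15; edgeR adjusted p = 0.761), so no difference was detectable at this depth, where 3 counts correspond to 0.336 to 1.64 CPM.

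Among the Spred genes, Spred1, which links neurofibromin to RAS at the membrane, had the lowest unadjusted edgeR p of the 6 genes tested (0.00788). The gene spans 117121374 to 117182279 on chromosome 2 (plus strand). Control libraries 1 to 11 had 5.39, 14, 8.37, 9.86, 9.03, 3.83, 3.67, 6.72, 7.82, 9.78 and 10.2 CPM, and the Tyrphostin libraries 5.02, 3.88, 5.27, 5.62, 5.66 and 3.36 CPM. The Tyrphostin libraries were narrowly grouped, and 8 of the 11 Control libraries exceeded all of them; Control 1, 6 and 7 did not. The Control mean was 8.07 CPM ± 3.06 (SD, n = 11) and the Tyrphostin mean 4.8 CPM ± 0.96 (SD, n = 6). The log2 fold change was -0.76 ± 0.26 (SE; 95% interval -1.30 to -0.22; edgeR adjusted p = 0.0651), and the exact permutation test gave p = 0.0308 (0.025 with Control sets averaged). Within batches the estimates were close, -0.86 ± 0.36 and -0.65 ± 0.38 (SE; edgeR adjusted p = 0.179 and 0.606).

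Spred2, which likewise inhibits RAS signalling to ERK, lies on chromosome 11 from 19924375 to 20024026 (plus strand). In batch 1 the Control libraries had 6.74, 4.67, 11.4, 10.4, 8.75 and 23.5 CPM and the Tyrphostin libraries 5.59, 10.9 and 10.2 CPM, which overlap fully. In batch 2 the Control libraries had 4.99, 6.5, 6.51, 5.94 and 6.62 CPM and the Tyrphostin libraries 4.39, 3.77 and 4.66 CPM, so all 3 lay below every Control library. Its means were 8.73 CPM ± 5.35 (SD, n = 11) and 6.57 CPM ± 3.11 (SD, n = 6). The log2 fold change was -0.36 ± 0.26 (SE; 95% interval -0.91 to 0.18; edgeR adjusted p = 0.435) and depended on Control 6, the library at 23.5 CPM, without which it was -0.18 (0.68). Within batch 2 it was -0.51 ± 0.29 (SE; edgeR adjusted p = 0.603), and the interaction was not detected (-0.26 ± 0.54, SE).

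Spred3, the least abundant Spred gene, lies on chromosome 7 from 29158829 to 29170411 (minus strand). It had 3 to 62 counts per library. The Control libraries ran from 1.49 to 6.95 CPM with a median of 4.04, and the Tyrphostin libraries from 0.56 to 3.51 CPM with a median of 2.43. Tyrphostin 6 was the only one below every Control library. Its means were 4.11 CPM ± 1.70 (SD, n = 11) and 2.35 CPM ± 1.03 (SD, n = 6). The log2 fold change was -0.79 ± 0.35 (SE; 95% interval -1.52 to -0.06; edgeR adjusted p = 0.17), with an exact permutation p of 0.0419 (0.05 with Control sets averaged). Ggn on the other strand overlaps 3.25% of its exonic bases, so reads there cannot be assigned, and had 14 counts over all libraries.

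**Figure D3:**
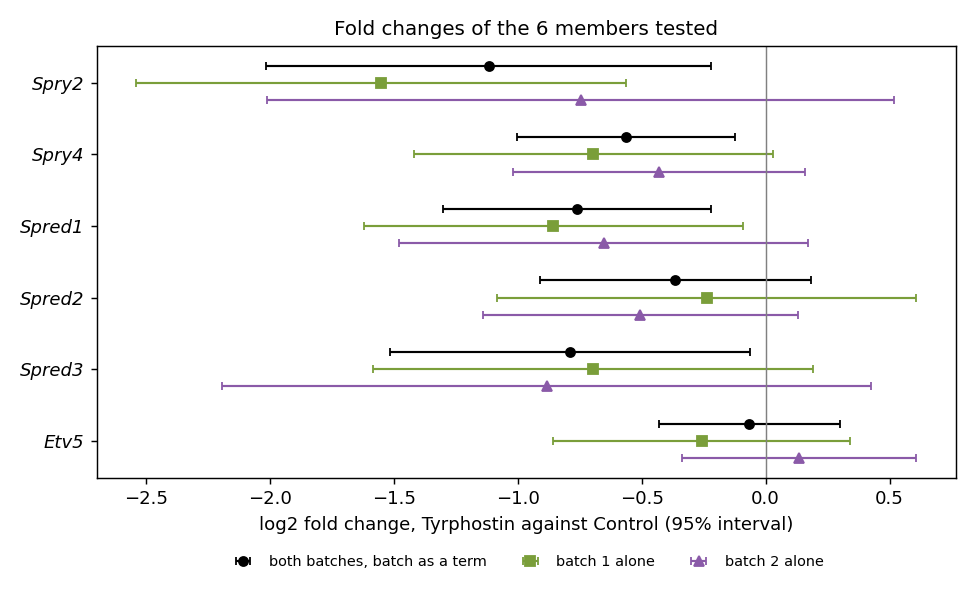
Log2 fold changes of the 6 genes that passed the filter, Tyrphostin against Control, with 95% intervals from edgeR's quasi-likelihood fit, over both batches and in each batch alone. Intervals over both batches exclude 0 for Spry2, Spry4, Spred1 and Spred3 before adjustment over the 9603 genes, and include it for Spred2 and Etv5.

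Of the PEA3 factors, Etv5 was the only one above the filter, and its level varied least, relative to its mean, over the Control libraries among the 6 genes tested. It lies on chromosome 16 from 22381309 to 22439719 (minus strand). The Control libraries had 14.3, 13.6, 12.6, 9.86, 15.2 and 6.57 CPM in batch 1 and 13.1, 14, 12.6, 13.8 and 13.9 CPM in batch 2. The Tyrphostin libraries had 11.9, 10.3 and 8.2 CPM in batch 1 and 15.1, 13.2 and 16 CPM in batch 2, inside the Control range in batch 1 and partly above it in batch 2. The means, 12.7 CPM ± 2.45 (SD, n = 11) and 12.5 CPM ± 2.95 (SD, n = 6), were nearly equal. The log2 fold change was -0.06 ± 0.18 (SE; edgeR adjusted p = 0.876). Its 95% interval of -0.43 to 0.30 lies above the estimates of Spry2, Spry4, Spred1 and Spred3 but overlaps their intervals, and differences between genes were not tested. For Etv5 the exact permutation p was 0.8 (0.84 with Control sets averaged), and the batch estimates were -0.26 ± 0.29 and 0.13 ± 0.22 (SE).

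Etv4 and Etv1 were below the filter. Etv4, on chromosome 11 from 101769742 to 101785371 (minus strand), had 22 counts over the 11 Control and 5 over the 6 Tyrphostin libraries, and 0 in 7 of 17 libraries. All 3 Tyrphostin libraries of batch 1 were at 0, as were 3 of the 6 Control libraries there. Without the filter its log2 fold change was -1.73 ± 0.96 (SE; 95% interval -3.64 to 0.18; edgeR adjusted p = 0.373), and the exact permutation p was 0.0961 (0.05 with Control sets averaged). Etv1, on chromosome 12 from 38779380 to 38870484 (plus strand), had 37 and 33 counts and at most 14 in a library. Its log2 fold change without the filter was 0.30 ± 0.61 (SE; 95% interval -0.91 to 1.51; edgeR adjusted p = 0.864), so neither gene's change was detectable at this depth.

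Within single batches edgeR called 0 of the 6 genes, beside 6.73% of the genes tested in batch 1 and 0.621% in batch 2. At an unadjusted p under 0.05 there were 2 of 6 in batch 1, Spry2 and Spred1, beside 21.2% of all genes tested, and 0 of 6 in batch 2, beside 10.7%. For the interaction of treatment and batch 0 of 6 were called and 0% of all genes. At an unadjusted p under 0.05 the interaction had 342 genes, of which 0 were members.

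Control libraries alone were also compared between batches, to show how far the members vary without the inhibitor. The low-count filter was set anew on these libraries and kept 6680 genes, against 9603 in the fit over all libraries, and Spred3 did not pass it. Of the 5 members tested among the 11 Control libraries 1 was called, beside 14% of all genes tested. Spry2 averaged 20 CPM ± 11.4 (SD, n = 6) in batch 1 and 62 CPM ± 42.7 (SD, n = 5) in batch 2, a log2 difference of 1.63 ± 0.51 (SE; edgeR adjusted p = 0.049). This call lay at the threshold and did not hold in 8 of the 11 refits without a single Control library (Control 1, 2, 3, 5, 6, 9, 10 or 11), with an edgeR adjusted p of 0.0598 to 0.101. The log2 difference was 1.24 without Control 9 and 1.46 or more otherwise. Spry4 averaged 8.5 CPM ± 2.12 (SD, n = 6) and 13.1 CPM ± 1.91 (SD, n = 5), with every batch 2 library above every batch 1 library, and had a log2 difference of 0.68 ± 0.23 (SE; edgeR adjusted p = 0.0553). It was called with total-count scaling (0.0271), without Control 6 (0.0415) and without Control 7 (0.0484). Over all genes, total-count scaling called 270 lower and 840 higher in batch 2 of 6680 tested. The calls were 452 and 460 of 6799 without Control 6, and 495 and 530 of 6865 without Control 7. The difference for Spred2 went the other way, -0.74 ± 0.33 (SE; edgeR adjusted p = 0.154), and Spred1 and Etv5 had differences of -0.13 ± 0.32 and 0.18 ± 0.22 (SE).

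Other genes of the pathway were taken from lists. Of 12 transcripts used as readouts of ERK activity, 11 were tested, and 10 had lower estimates. Of the 11, 6 were called lower, beside 6.25% of all genes tested: Errfi1, which encodes an EGF receptor inhibitor, Fosl1, Dusp6, Egr1, Myc and Phlda1. The list median was -1.22, and 0 were called higher. The list was written with earlier results of these samples known, so it is no independent evidence of direction. Dusp6, an ERK phosphatase gene, fell by 2.05 on the log2 scale ± 0.22 (SE; edgeR adjusted p = 1.88e-06). Its CPM was 72.8 to 190 in the 6 Tyrphostin libraries, all below the Control range of 382 to 814. Errfi1 and Egr1 had log2 fold changes of -2.59 ± 0.31 and -1.71 ± 0.22 (SE). Of the 5 tested readouts with Control means under 20 CPM, 2 were called and 3 were not. Fosl1 (Control mean 19.7 CPM) and Phlda1 (7.31 CPM) were called at -2.38 ± 0.29 and -1.22 ± 0.30 (SE; edgeR adjusted p = 8.36e-06 and 0.0105). Dusp4 (12.4 CPM), Dusp5 (4.49 CPM) and Epha2 (2.6 CPM) had -1.06 ± 0.40, -1.20 ± 0.46 and 0.35 ± 0.33 (SE; edgeR adjusted p = 0.0992, 0.104 and 0.576). Ier3 (508 CPM) and Epha4 (89.3 CPM), at higher levels, were not called either, at -0.99 ± 0.32 and -0.19 ± 0.20 (SE; edgeR adjusted p = 0.0532 and 0.626).

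Among the 23 other ETS genes 12 were tested, 8 had lower estimates and 4 higher, with a list median of -0.19. Of the 12, 2 were called lower, beside 6.25% of all genes tested. Etv6, which encodes an ETS repressor, fell by 1.01 on the log2 scale ± 0.17 (SE; edgeR adjusted p = 0.000284), with means of 44.2 CPM ± 8.3 (SD) over 11 Control and 21.6 CPM ± 6.11 (SD) over 6 Tyrphostin libraries, and with 6 of 6 Tyrphostin libraries below every Control library. Ets1 fell by 1.18 ± 0.29 (SE; 0.00897). Gabpa and Elf2, ETS genes expressed in most cells, had log2 fold changes of -0.20 ± 0.13 and 0.12 ± 0.13 (SE).

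Genes of proteins that Sprouty or Spred bind or act with gave 1 call among 14 tested, near the 6.25% of all genes called lower. Their median was -0.13 (0.01 with total-count scaling). The gene called was Cblb, a ubiquitin ligase gene, which fell by 1.10 on the log2 scale ± 0.20 (SE; edgeR adjusted p = 0.00056). Nf1, the neurofibromin gene, had a log2 fold change of 0.00 ± 0.23 (SE) and Ptpn11 of 0.01 ± 0.15 (SE). Of 5 regulators of PEA3 factors 4 were tested and 0 called, Cic, the Capicua gene, having 0.05 ± 0.19 (SE). By edgeR 0 of the 4 had an unadjusted p under 0.05, and 0 were called in any of the 4 scalings, while their median of -0.07 turned to 0.07 with total-count scaling. Of 11 FGF ligand and receptor genes 3 were tested, all receptors, and Fgfr1 was called lower at -0.62 ± 0.20 (SE; edgeR adjusted p = 0.047), a call that was lost with upper-quartile or total-count scaling. The ligand genes had at most 11 counts in any library.

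**Figure D4:**
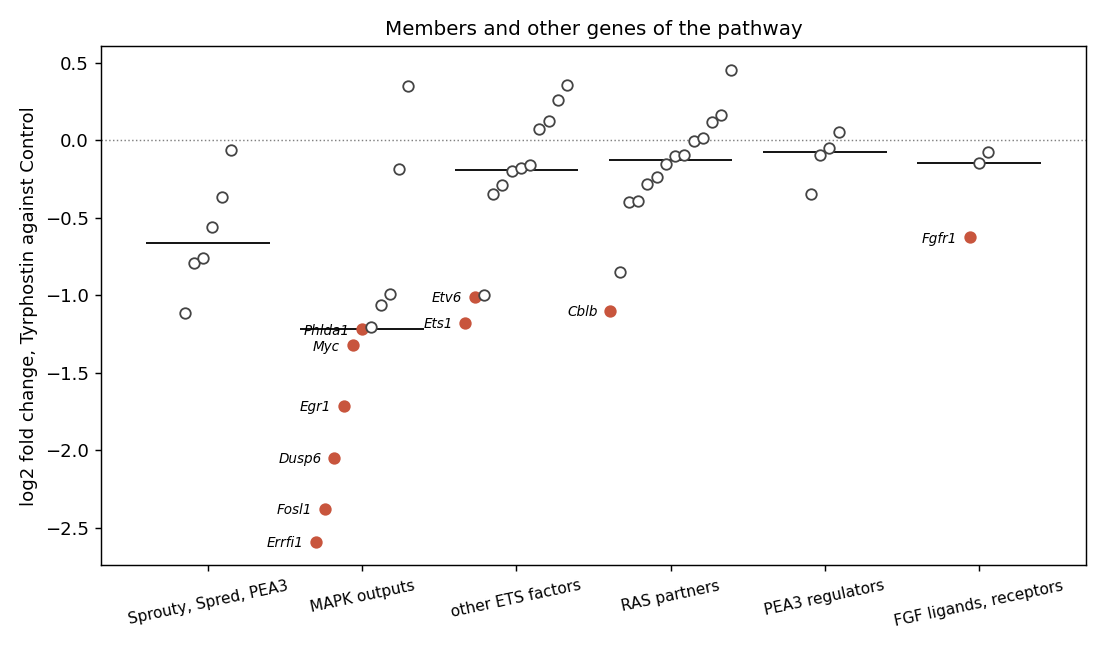
Log2 fold changes, Tyrphostin against Control, of the 6 tested members and the tested genes of 5 pathway lists; each point is 1 gene, filled where the edgeR adjusted p is under 0.05, and lines are list medians. The member median is -0.66 with no filled point, and the median of MAPK outputs is -1.22 with 6 filled points.

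The genes most alike in pattern were found by Pearson correlation of log2 CPM over the 17 libraries, with batch means removed, among 6329 candidates and for the 4 members with an average log2 CPM of at least 3. Spry2 was most like Arpc5 (r = 0.83), Ggps1 (0.82) and Far1 (0.82), and Spry4 most like Tro (0.87), Hgs (0.86) and Slc35e4 (0.86). Spred2 was most like Rnps1 (0.80), Nomo1 (0.79) and Nol6 (0.76), and Etv5 most like Usp38 (0.80), C9orf72 (0.78) and Smurf2 (0.77). These are the highest of many correlations over libraries that share treatment and depth, and none of the 12 genes was a member of the pathway lists.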

How the data were processed

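RNA of 17 mouse follicle libraries, made by the Smart-Seq2 protocol per the labels (full-length, PCR-amplified, no strand mark and no molecular identifiers), was analysed from 1 deposited table of counts per gene, which the authors made by aligning reads with STAR and counting with HTSeq on GRCm38, per the submitters' processing notes. Versions, annotation and strand setting are not given in the sources used here. The deposited counts were whole numbers and were used as they stood. Genes were filtered with filterByExpr on the treatment group, scaled by TMM and fitted over all 17 libraries with edgeR 4.0.16 (R 4.3.3; quasi-likelihood test, batch as a term, Benjamini-Hochberg adjustment over all genes tested, threshold 0.05). Other fits took each batch alone, the interaction of treatment and batch, and Control libraries between batches, the last with the filter taken over all Control libraries as a single group. Single genes were also tested with exact permutations within batches on log2 CPM with a prior count of 2. DESeq2 1.42.0, limma 3.58.1, other scalings and filters, a replicate block and leaving out each library were alternatives. The fit over all libraries was tested on simulated data with known fold changes. The simulated libraries had no batch difference and no likeness within Control sets, so that test covers neither. The Control libraries were also summed or averaged by the set in their names.

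Totals of 1820545 to 8291024 counts make 3 counts equal to 0.336 to 1.64 CPM, and this floor covers counting error only. All 9 members are named. From each pathway list the called genes with the largest absolute log2 fold change are named, up to 4, and genes named beyond these were chosen after their values were seen. The members and lists were chosen with earlier results of these data known. Gene positions are from GENCODE M21, and promoter windows are from RefSeq. Those of Spry4 and Etv4 are not used here.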

Additional observations from a re-analysis of the deposited data

Results flagged for a closer look

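In 2 of 27 groups of libraries (each of the 9 genes over the Control libraries of batch 1, the Control libraries of batch 2 and the 6 Tyrphostin libraries) 1 library stood apart from the others by Dixon's gap test, beside about 1.35 that chance gives. Spry4 was at 16.5 CPM in Control 8, with the other 4 Control libraries of batch 2 between 12.1 and 12.5 CPM. Without Control 8 its log2 fold change was -0.51 (edgeR adjusted p = 0.167). Spred2 was at 23.5 CPM in Control 6, the library with the fewest counts, with the other 5 Control libraries of batch 1 between 4.67 and 11.4 CPM. Without Control 6 its log2 fold change was -0.18 (edgeR adjusted p = 0.68), against -0.36 with all libraries.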

How the results depend on the processing

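Against 0 members called lower with all libraries, DESeq2 called 2 (Spry2, adjusted p = 0.0315, and Spred1, 0.043), and edgeR without Control 6 and 7 together called 2. Leaving out 1 library at a time gave 0 to 2 members called lower. Numbers in the sample titles did not show a pairing of the libraries: same-numbered libraries had correlations of 0.031 to 0.32, and only number 1 correlated best with its own number. For numbers 4, 5 and 6 the Control library was in batch 1 and the Tyrphostin library in batch 2, so these could not show a pairing within a batch. In a fit with the number as a replicate block, the treatment estimate rested on Control 1 to 3 against Tyrphostin 1 to 3 of batch 1. Numbers 4 to 6 cross the batches there, and Control 7 to 11 share no number with a Tyrphostin library. That fit called 1 member, Spry2 (log2 fold change -1.33, edgeR adjusted p = 0.0372), turned Spred2 to 0.26, and called 636 genes, against 1018. Without the batch term 619 genes were called, at an adjusted p under 0.01 there were 478, and with a log2 fold change of at least 1 there were 450. Within batch 1 leaving out a library gave 0 to 1 members called. Between Control batches leaving out a library gave 0 to 2 and total-count scaling 2, both added after seeing the data. Over all genes, total-count scaling called 270 lower and 840 higher of 6680 tested. The fit without Control 7, which called 2 members, called 495 lower and 530 higher of 6865. Etv5 turned to 0.0686 with total-count scaling and ranged from -0.12 to 0.0251 over single libraries left out, positive without Tyrphostin 3. Total-count scaling split the calls of all genes into 396 lower and 715 higher, against 600 and 418. Spry2, Spry4, Spred1 and Spred3 kept a negative estimate in 17 of 17 fits without a library and 13 of 13 other alternatives each. Depth limits Spry1, Etv1 and Etv4, where 3 counts reach up to 1.64 CPM.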
